A study of Mus musculus with 20 samples.

Results

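The subject here is a set of 5 microRNA seeds that belong to smooth muscle and fibroblasts in most tissues: those of miR-143-3p, miR-145a-5p, miR-199a-5p, miR-199a-3p and miR-214-3p. A seed is bases 2 to 8 of the mature miRNA, and the deposited small RNA table holds a row of counts per seed, so a row is a family and not a single miRNA. The members are the 5 rows, of 4940 in the table, whose letters equal these seeds. They were chosen by name and for their levels over the stages, so those levels are given as a description, with no test. The tests below come from RNA libraries, which did not choose the members.

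All mice were wild-type C57BL/6J. Whole testis was taken on days 1, 3 and 7 after birth. Leptotene/zygotene and pachytene spermatocytes, cells in early and middle meiotic prophase, were purified from adults of about 70 to 80 days by STA-PUT, a sedimentation at unit gravity that parts cells by size. By microscopy, per the labels, the fractions were about 90% pure and showed no somatic cells. Each stage had 2 biological replicates in each assay, small RNA and RNA, with 20 libraries in all. The comparison of leptotene/zygotene spermatocytes with day 7 testis therefore sets adult purified germ cells against a juvenile organ that also holds Sertoli, Leydig, peritubular, vascular and blood cells.

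miR-143 and miR-145a are cut from a shared primary transcript that is transcribed in smooth muscle under serum response factor and its partner myocardin, and they help to keep smooth muscle cells contractile. miR-199a and miR-214 are cut from Dnm3os, a transcript that lies antisense within the dynamin gene Dnm3 and is transcribed in mesenchyme under Twist1. In the testis the contractile peritubular myoid cells around the tubules and the walls of blood vessels are smooth muscle, and the interstitium and tunica hold fibroblasts.

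The mature sequences of the miR-199a and miR-214 families are printed to show what a seed row can and cannot tell apart, with the seed in capitals. They were taken from RefSeq with the build GRCm38.p6.
miR-199a-5p: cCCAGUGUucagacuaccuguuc
miR-199a-3p: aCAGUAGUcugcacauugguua
miR-199b-3p: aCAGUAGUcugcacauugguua
miR-214-3p: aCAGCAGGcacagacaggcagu
miR-214-5p: uGCCUGUCuacacuugcugugc
miR-761: gCAGCAGGgugaaacugacaca
miR-199a-3p and miR-199b-3p are the same sequence, so the row of the miR-199a-3p seed counts both. It can come from 3 hairpins, Mir199a-1 within Dnm2, Mir199a-2 within Dnm3os and Mir199b within Dnm1. The row of the miR-214-3p seed also covers miR-761, which shares it. The 2 hairpins that Dnm3os carries are printed in full because their members share a host, with the mature arms in capitals. Mir199a-2 lies at chr1:162217814-162217923 and Mir214 at chr1:162223368-162223477, both on the plus strand of GRCm38.p6, with 5554 bases between their starts.
Mir199a-2: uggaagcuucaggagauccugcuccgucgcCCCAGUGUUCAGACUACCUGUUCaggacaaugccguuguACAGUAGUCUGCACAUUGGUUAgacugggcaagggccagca
Mir214: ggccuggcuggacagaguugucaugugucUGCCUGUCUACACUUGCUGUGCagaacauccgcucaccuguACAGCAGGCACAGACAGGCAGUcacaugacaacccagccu
Mir143 and Mir145a lie in Carmn, which the deposited RNA table lists as Mir143hg.

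The small RNA libraries differed widely in depth, from 112967 to 11061273 counts, and the second replicates of both spermatocyte stages were the shallowest, at 119746 and 112967. Those 2 libraries also had TMM scaling factors of 1.67 each, beside 0.874 and 1.02 in the first replicates. Shares of all counts are therefore given beside scaled values, and ratios of rows within a library, which no scaling can change. RNA libraries held 3597360 to 22181395 counts on genes. Spermatocyte genes were high in the purified fractions: 11 of 12 rose from day 7 testis to leptotene/zygotene spermatocytes and none fell (edgeR's quasi-likelihood test, adjusted p under 0.05, at a step where 36.5% of all genes tested rose). Their summed level hardly parted the fractions, at 16469.8 to 19348.5 CPM, counts relative to the TMM-scaled library size, in leptotene/zygotene and 14206.8 to 16245.5 in pachytene spermatocytes. Transcripts of later spermatids, over 10 listed genes, were also abundant in the leptotene/zygotene libraries, at a summed 65920 to 68807 CPM. They stood at 5440 to 8894 in pachytene spermatocytes and 3.69 to 4.05 at day 7. All 10 rose from day 7, and 6 fell into pachytene, where 13.2% of all genes fell. These markers thus part the fractions from day 7 testis but do not bear out the stage names. In bulk libraries, fewer cells of a type and less RNA per cell cannot be told apart.

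miR-143-3p was among the most abundant families at every stage and stayed so in purified spermatocytes. It took 6.10% and 4.90% of counts at day 1, 4.06% and 4.33% at day 3, and 5.35% and 5.67% at day 7. In leptotene/zygotene spermatocytes it took 13.3% (95% Wilson interval 13.2 to 13.4, 109278 counts) and 7.98% (7.83 to 8.14, 9561 counts). In pachytene spermatocytes the shares were 5.57% (5.497 to 5.65) and 5.30% (5.18 to 5.44), from 18864 and 5992 counts. Both leptotene/zygotene shares lay above all 6 testis shares, while both pachytene shares lay within the range of testis. Such intervals cover counting error only, and the replicates lay farther apart than that. By rank, miR-143-3p was the third to the sixth most abundant row in all 10 libraries.

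On the CPM scale the same row read 71771 and 65800 at day 1, 56945 and 47818 at day 3, and 54230 and 56755 at day 7. The leptotene/zygotene libraries stood at 152460 and 47697 CPM, which lie above and below both day 7 libraries, and the pachytene libraries at 54810 and 31760. Scaled this way both day 1 libraries lay above those of days 3 and 7, while the leptotene/zygotene pair spanned all testis libraries and the second pachytene library was the lowest of the 10. The stage means were 68786 ± 4222, 52382 ± 6454, 55492 ± 1786, 100079 ± 74078 and 43285 ± 16298 CPM (SD, n = 2 each) in the order of the stages. By mean the order was leptotene/zygotene, day 1, day 7, day 3 and pachytene, and of neighbours in it only day 1 and day 7 did not overlap. The fitted log2 difference between leptotene/zygotene and day 7 was 0.85 ± 0.52 (SE), against a median of -0.91 over the 745 families fitted. It was 1.19 without the shallow second leptotene/zygotene library and 0.63 without the first. As background, 24.8% of families rose and 37.3% fell at that step, 3.89% and 0.268% between days 3 and 7, 0% and 0% between days 1 and 3, and 0.134% and 0.268% into pachytene (edgeR, adjusted p under 0.05). The members are not counted against these, since the same levels chose them. The background itself moved with the setting: 185 families rose and 278 fell from day 7 to leptotene/zygotene, but 117 and 116 without the first leptotene/zygotene library (median -2.33), 213 and 232 with upper-quartile scaling (median -0.37) and 209 and 196 by DESeq2, which takes in all rows (median 0.94). From leptotene/zygotene to pachytene miR-143-3p differed by -1.21 ± 0.52, against a median of 0.

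Most other abundant testis families were lower in the spermatocytes. Of 18 families with at least 10000 CPM at day 7, 15 had a negative log2 difference to leptotene/zygotene, with a median of -1.74. Of these 18, 16 had a lower difference than miR-143-3p. They were picked by their day 7 level, the base of that difference. Over all 745 families fitted, 514 (69.0%) had a lower difference than miR-143-3p. Among the 175 with a mean of at least 100 CPM, 127 did. Only 3 of the 18, miR-143-3p among them, had both leptotene/zygotene shares above both day 7 shares. The most abundant of all, the row that miR-10a-5p shares with miR-10b-5p, was at 246240 and 244207 CPM at day 7, then 203077 and 51419 in leptotene/zygotene spermatocytes. miR-22-3p, which is abundant in muscle, was at 56139 and 57848 CPM at day 7 and 27987 and 12931 in leptotene/zygotene spermatocytes, while day 1 stood at 27421 and 25498. Its leptotene/zygotene libraries lay below those of day 3 and day 7.

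miR-145a-5p, which shares the primary transcript of miR-143, was far scarcer and much more variable. Its row held 224 and 410 CPM at day 1, 666 and 313 at day 3, and 354 and 450 at day 7. In leptotene/zygotene spermatocytes it held 1131 CPM (811 counts) and 115 CPM (23 counts), and in pachytene spermatocytes 1124 CPM (387 counts) and 111 CPM (21 counts). On this scale the first replicate of both spermatocyte stages lay above all testis libraries and the second below all of them. As a share of counts the row took 0.0190% to 0.0475% in testis, 0.0988% and 0.0192% in leptotene/zygotene spermatocytes, and 0.114% and 0.0186% in the pachytene libraries. By share the first replicates were again the highest, but the second leptotene/zygotene library lay just above the lowest testis library. The fitted difference from day 7 to leptotene/zygotene, 0.66 ± 0.99 (SE), became -0.96 without the first leptotene/zygotene library and 1.22 without the second, so its direction rested on a single library.

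miR-199a-3p was an abundant testis family that was nearly lost from the spermatocyte libraries. It was at 15136 and 16072 CPM at day 1, 19502 and 15232 at day 3, and 14613 and 12562 at day 7. It was then at 1105 and 334 CPM in leptotene/zygotene spermatocytes and 447 and 339 in pachytene spermatocytes, from 792, 67, 154 and 64 counts. The groups did not overlap: the highest spermatocyte library lay far below the lowest testis library. As a share of counts it stood at 1.198% to 1.44% in testis and 0.0455% to 0.0965% in spermatocytes. The fitted log2 difference from day 7 to leptotene/zygotene was -4.23 ± 0.59 (SE), and -4.49 and -3.89 without the first and the second leptotene/zygotene library. Of the 745 families fitted, 117 (15.7%) had a lower difference. How many families lay apart without overlap, as this row did, was not counted.

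miR-199a-5p, the other arm of the same hairpins, was highest at day 3. Day 1 libraries read 1407 and 1088 CPM, day 3 libraries 4469 and 4429, and day 7 libraries 2110 and 2166. The 3 testis stages did not overlap, and the log2 differences were 1.83 ± 0.75 from day 1 to day 3 and -1.06 ± 0.74 from day 3 to day 7 (SE). In leptotene/zygotene spermatocytes it read 266 and 34.9 CPM (191 and 7 counts), and in pachytene spermatocytes 116 and 21.2 CPM (40 and 4 counts). All 4 lay below all testis libraries, with a log2 difference of -3.75 ± 0.83 at the step from day 7. A lower difference was seen in 147 (19.7%) of the 745 families fitted. The 2 arms did not keep a constant ratio: miR-199a-3p over miR-199a-5p was 10.8 and 14.8 at day 1, 4.36 and 3.44 at day 3, and 6.92 and 5.80 at day 7.

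miR-214-3p was the scarcest member by mean at day 7 and in both spermatocyte stages, while miR-145a-5p was scarcer at day 1 and about level with it at day 3. It read 449 and 666 CPM at day 1, 571 and 430 at day 3, and 275 and 314 at day 7, where both libraries lay below those of the earlier days. The spermatocyte libraries held 20, 1, 4 and 3 counts, which read 27.9 and 4.99 CPM in leptotene/zygotene and 11.6 and 15.9 CPM in pachytene spermatocytes. A floor of 3 counts came to 15.0 and 15.9 CPM in the shallow second replicates, so pachytene and leptotene/zygotene cannot be ordered. The log2 difference from day 7 was -3.88 ± 0.60 (SE), and -5.03 without the first leptotene/zygotene library, which leaves the library with a single count. In the fit of all libraries, 139 (18.7%) of 745 families had a lower difference. Its other arm, miR-214-5p, read 197 and 195 CPM at day 7 and 12.6 and 9.98 CPM (9 and 2 counts) in leptotene/zygotene spermatocytes, a log2 difference of -4.05 ± 0.54.

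**Figure D1:**
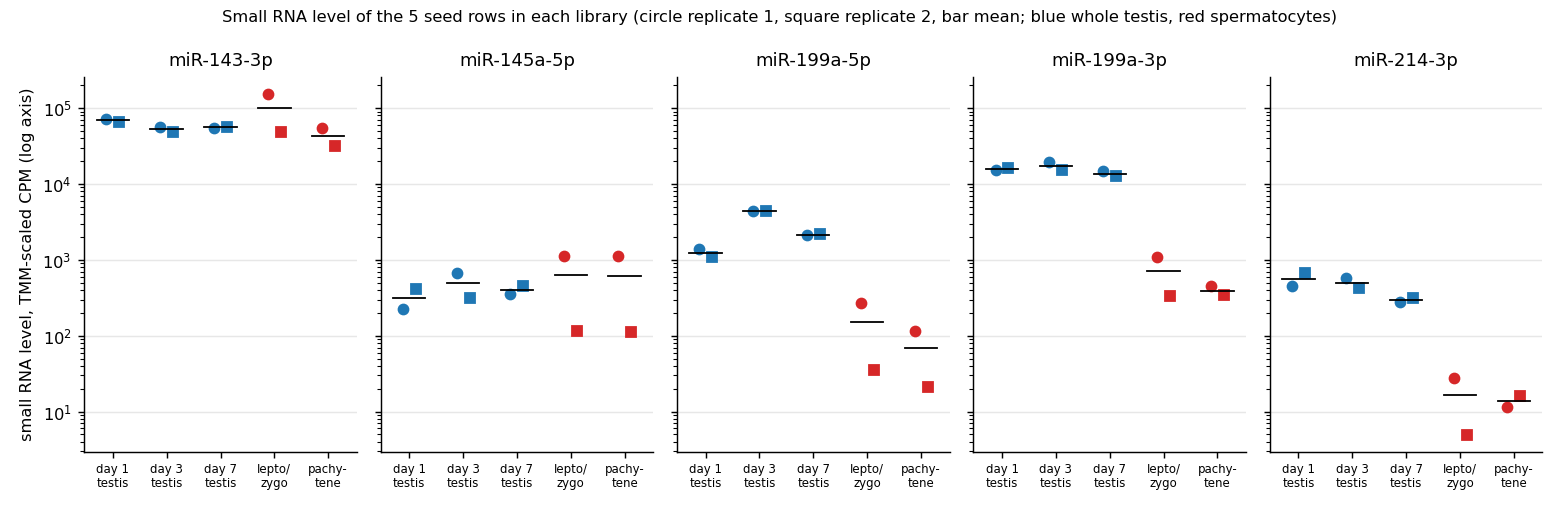
Small RNA level in TMM-scaled CPM (log axis) of the 5 seed rows in each library at the 5 stages. Points are libraries and bars the mean of 2. miR-143-3p stays between 31760 and 152460 CPM. All 4 spermatocyte libraries of miR-199a-5p, miR-199a-3p and miR-214-3p lie below all 6 testis libraries. How many of all families do so was not counted. From day 7 to leptotene/zygotene, 117 to 147 of the 745 families fitted had a lower log2 difference than these members.

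Ratios within a library show the parting of miR-143-3p from the Dnm3os members without any scaling. For each count of miR-199a-3p there were 4.74 and 4.09 counts of miR-143-3p at day 1, 2.92 and 3.14 at day 3, and 3.71 and 4.52 at day 7. The ratio was 138 (95% counting interval 129 to 148) and 142.7 (112 to 184) in leptotene/zygotene spermatocytes, and 122 (105 to 144) and 93.6 (73.2 to 122) in pachytene spermatocytes. The replicates of leptotene/zygotene spermatocytes thus gave nearly the same ratio although their scaled levels of miR-143-3p differed severalfold. Over miR-199a-5p the ratio was 10.8 to 60.5 in testis and 472 to 1498 in spermatocytes, and over miR-214-3p it was 98.8 to 197 in testis and 1997 to 9561 in spermatocytes.

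Of the Dnm3os members, miR-199a-3p and miR-214-3p kept a closer ratio to each other. miR-199a-3p over miR-214-3p was 24.1 to 53.1 in the 6 testis libraries. It was 39.6 (25.5 to 65.2) and 67 (11.6 to 2685) in leptotene/zygotene spermatocytes, and 38.5 (14.7 to 143.1) and 21.3 (6.98 to 106) in pachytene spermatocytes, intervals that all overlap the testis range. miR-199a-3p over miR-199a-5p varied more, from 3.44 to 14.8 in testis and 3.85 to 16.0 in spermatocytes. miR-143-3p over miR-145a-5p also varied widely. It ranged from 85.5 to 321 in testis, with 135 and 416 in the leptotene/zygotene libraries and 48.7 and 285 in the pachytene libraries. Replicates there differed more than stages.

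**Figure D2:**
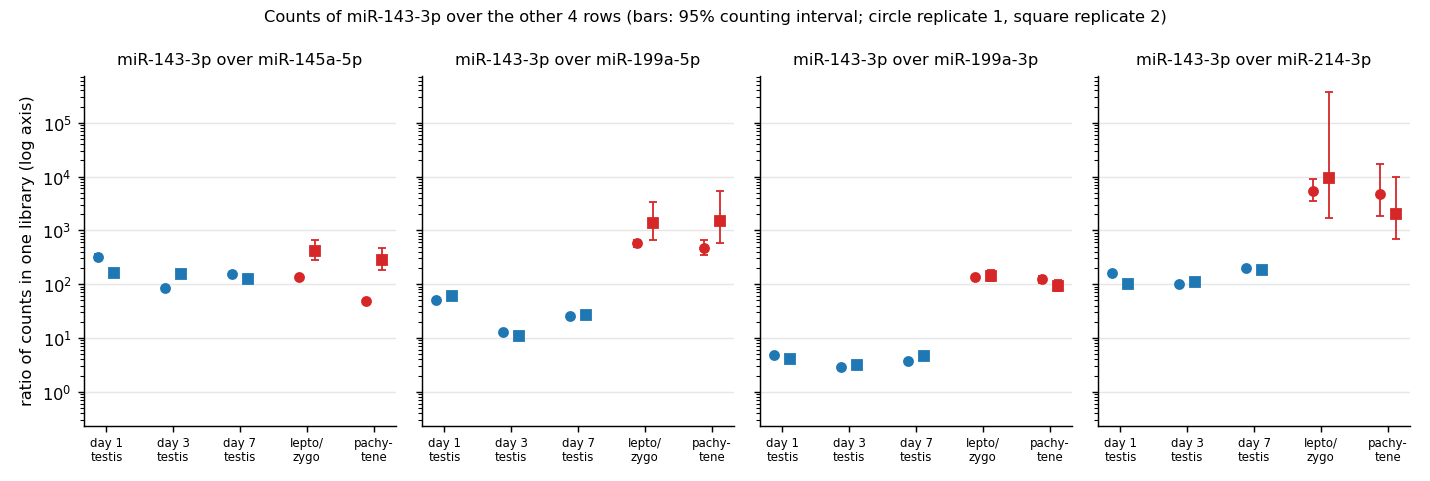
Counts of miR-143-3p over those of the other 4 rows in each library (log axis), with 95% counting intervals. The ratio to miR-199a-3p is 2.92 to 4.74 in testis and 93.6 to 142.7 in spermatocytes, while the ratio to miR-145a-5p overlaps between testis and spermatocytes.

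Across the 10 small RNA libraries the Dnm3os members followed a shared pattern, while miR-143-3p and miR-145a-5p were less alike. The Pearson r of log2(CPM + 1) was 0.99 between miR-199a-3p and miR-214-3p, 0.96 between miR-199a-3p and miR-199a-5p, and 0.92 between miR-199a-5p and miR-214-3p. It was 0.65 between miR-143-3p and miR-145a-5p, and 0.10 to 0.36 between either of these and any Dnm3os member. These values describe 10 libraries that share stages and depth, so they carry no test.

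The families most like each member by the same r were sought among the 175 with a mean of at least 100 CPM. For miR-145a-5p they were miR-183-5p (r = 0.93), the row AUUAUUA (0.90), which equals no RefSeq mature seed, and miR-126a-3p (0.89), an endothelial miRNA. For miR-199a-5p they were the row GCUCGAC (0.995), miR-450b-5p (0.99) and the shared row of miR-379-5p and miR-1193-5p (0.98). For miR-199a-3p they were miR-300-3p, its own row shifted by a base, and the shared row of miR-379-3p and miR-411-3p (0.995 to 0.996). For miR-214-3p they were a shifted row of miR-199a-3p (0.99), the shared row of miR-148a-5p and miR-148b-5p (0.99) and miR-149-5p (0.99). miR-300, miR-379 and miR-411 belong to the large imprinted miRNA cluster that is also the source of miR-127. miR-143-3p had no such close neighbour: beyond a row that shares 6 of its letters at a shift of 1 base (0.90), the next were the rows AUUAUUA and UGGCACU, at 0.67 and 0.66.

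Rows shifted by a base also give a view of how the reads of a member begin. Such rows held 0.69% to 1.315% as many counts as the row of miR-143-3p in all 10 libraries, with spermatocytes at 0.743% to 1.315% and testis at 0.69% to 0.965%. For miR-199a-3p they held 22.7% to 46.9%. By this measure nearly all reads of miR-143-3p began at the same base, in testis and in spermatocytes alike.

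The host transcripts were then read in the RNA libraries, whose scaling did not depend on the small RNA counts. The genes read there were picked for their ties to these miRNAs, with earlier results of these data known. Mir143hg, the host of miR-143 and miR-145a, was at 12.4 and 8.45 CPM at day 1, 24.9 and 13.99 at day 3, then 18.03 and 20.7 at day 7. It held 1 count in each leptotene/zygotene library, 0 and 1 in the pachytene libraries, and 327 and 337 at day 7. It fell from day 7 to leptotene/zygotene, with a ratio of 0.00861 (95% counting interval 0.00104 to 0.0312) and an adjusted p of 1.81e-05 in edgeR's quasi-likelihood test. The mature miR-143-3p at the same step took a larger share of counts in both libraries.

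Dnm3os, the host of miR-199a-2 and miR-214, was at 289 and 173 CPM at day 1, 110.1 and 143.4 at day 3, then 47.5 and 53.0 at day 7. It held 0 and 3 counts in leptotene/zygotene spermatocytes and 4 and 6 in pachytene spermatocytes, beside 861 and 863 at day 7. It fell with a ratio of 0.00497 (0.00102 to 0.0146) and an adjusted p of 1.59e-06 in edgeR. Within testis its levels parted by day with no overlap, but neither step passed the test. Both long host transcripts were thus near 0 in the purified fractions, where miR-199a-5p, miR-199a-3p and miR-214-3p were low as well and miR-143-3p was not.

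The dynamin genes, listed with the hosts, did not follow. They hold hairpins by position: Dnm3 those of Dnm3os, and Dnm2 and Dnm1 the others. That overlap was read without strand, so the dynamin transcripts are not shown to be a source of these miRNAs. Dnm2, which holds Mir199a-1, rose from 79.6 ± 0.25 to 419 ± 238 CPM (SD, n = 2), a log2 fold change of 2.40 ± 0.39 (SE, adjusted p 0.000317 in edgeR). Dnm3, which overlaps Dnm3os on the opposite strand, rose by 2.33 ± 0.35 (adjusted p 0.000189), from 8.79 to 43.6 CPM. Dnm1, which holds Mir199b, rose by 1.06 ± 0.32 (adjusted p 0.0119), but it read -0.34 with plain library sizes. Whether the counting used strand is not stated, so reads of Dnm3 and Dnm3os cannot be told apart where they overlap. The short genes Mir143, Mir145, Mir199a-1, Mir199a-2, Mir199b and Mir214 held 0 to 2 counts in each RNA library and were not tested.

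**Figure D3:**
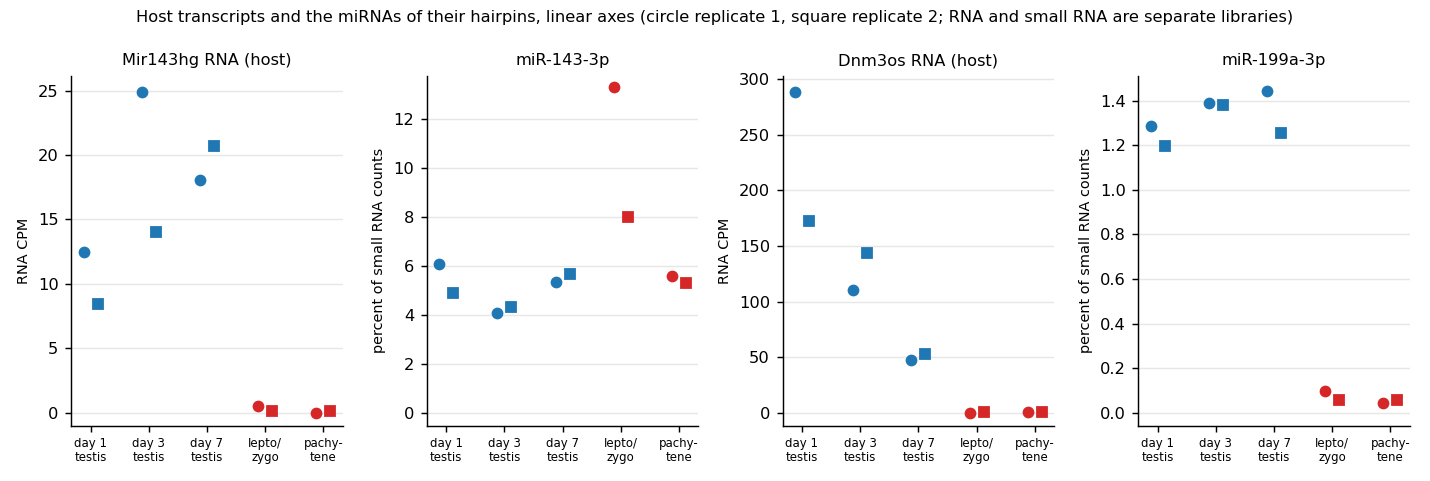
Host transcripts in RNA CPM and the shares of counts of their miRNAs in the small RNA libraries, by stage and library, on linear axes. Mir143hg and Dnm3os are both near 0 in spermatocytes, where miR-199a-3p is at most 0.0965% of counts and miR-143-3p is 5.30% to 13.3%.

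The promoter of Dnm3os is printed because its members moved together and because the CArG box, the element bound by serum response factor, marks many smooth muscle genes. The window runs from 250 bases before to 50 after the start, at chr1:162217373-162217672 on the plus strand of GRCm38.p6 (RefSeq), with the match in capitals.
Dnm3os promoter: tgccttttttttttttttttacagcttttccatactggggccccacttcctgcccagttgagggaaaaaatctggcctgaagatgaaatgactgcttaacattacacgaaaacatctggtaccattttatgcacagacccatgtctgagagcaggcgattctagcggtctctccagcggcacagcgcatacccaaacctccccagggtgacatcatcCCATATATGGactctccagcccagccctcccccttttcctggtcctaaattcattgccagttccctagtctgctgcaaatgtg
A CArG box was found there, starting 33 bases before the transcript start. The search took the box by its name, on both strands; of 27025 genes with such a window 488 (1.81%) held a match. Of 4 genes on the host list with a window only Dnm3os held a match. Of 15 smooth muscle genes with a window only Myl9 held a match, and of 10 fibroblast genes none did. A match describes letters only, and a lack of a match in this window says nothing of the factor.

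Regulators of these hosts mostly fell with them. Of 11 tested regulators 9 fell and 1 rose from day 7 to leptotene/zygotene spermatocytes. Over all 16872 genes tested at this step 36.5% rose and 42% fell, or 6163 and 7082 genes, and 4183 and 9928 with plain library sizes. Myocd, which codes for myocardin, fell from 13.9 ± 1.99 to 0.64 ± 0.48 CPM (SD, n = 2), a log2 fold change of -4.95 ± 1.03 (SE, adjusted p 0.00147 in edgeR). Twist1, the mesenchymal factor upstream of Dnm3os, fell by 4.91 ± 0.57 on the log2 scale (adjusted p 5.66e-05), from 17.8 and 20.6 CPM at day 7 to 1.46 and 0.40. Twist2, its close relative, held no counts in either leptotene/zygotene library and was at least 16.2-fold lower than at day 7 (adjusted p 0.000268).

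The transforming growth factor beta pathway, which can induce miR-143 and miR-145 in smooth muscle, fell in its 3 listed genes. Smad3, its signal carrier, fell from 96.5 to 4.98 CPM, Tgfb1, its ligand, from 16.5 to 0.89, and Smad4, the shared partner, from 104 to 42.9 (log2 fold changes -4.66, -4.28 and -1.30). Foxo1 and Trp53 fell by 3.45 and 3.64 on the log2 scale. Of the myocardin-related factors, Mkl2 fell by 0.94 (adjusted p 0.0327), a call that was lost with median-ratio factors, and Mkl1 rose by 1.76 ± 0.28 (adjusted p 0.00026), a call that was lost with plain library sizes. Srf itself, the serum response factor gene, did not pass the test: it read 84.5 and 84.1 CPM at day 7 and 66.6 and 165 in leptotene/zygotene spermatocytes (0.47 ± 0.39, adjusted p 0.289), and -0.95 (adjusted p 0.0325) with plain library sizes. Nkx2-5 was too low to be tested.

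From leptotene/zygotene to pachytene spermatocytes no host gene passed the test. Among regulators Tgfb1 rose by 1.51 ± 0.45 to 2.46 CPM (adjusted p 0.0383 in edgeR) and Twist1 fell from 7 counts to none, at least 2.36-fold (adjusted p 0.0489). Twist1 and Tgfb1 each lost the call under several of the other settings tried. Over all genes at this step 9.03% rose and 13.2% fell, or 1524 and 2220 genes, and 3732 and 1107 with plain library sizes.

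Smooth muscle genes were low in the spermatocyte fractions, with a single exception. Of 18 listed genes 14 fell and 1 rose from day 7 to leptotene/zygotene, with a median log2 fold change of -3.52, beside -0.31 over all genes. Acta2, the smooth muscle alpha actin of myoid and vascular cells, read 367 and 308 CPM at day 1, then 681 and 497 on day 3 and 491 and 459 on day 7. Leptotene/zygotene libraries held 30.1 and 11.2 CPM of it, pachytene libraries 16.1 and 10.3. Its 4 spermatocyte libraries lay far below all testis libraries, and it fell by 4.61 ± 0.48 on the log2 scale (SE, adjusted p 1.53e-05 in edgeR). Myh11, the smooth muscle myosin heavy chain, fell from 292 ± 5.31 to 30.3 ± 14.9 CPM (SD, n = 2), and Tagln, an actin-binding protein, from 149 ± 9.73 to 15.6 ± 6.09. Cnn1, calponin, and Des, the muscle intermediate filament desmin, fell by 3.89 and 2.36 on the log2 scale (adjusted p 0.000429 and 0.00252). Synpo2, Rgs5 and Pcp4l1 were the 3 that did not pass the test, at -0.36, -1.20 and -1.55.

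The exception was Actg2, the gamma actin of visceral smooth muscle. It was at 9.40 to 22.9 CPM in testis, then 413 and 581 in leptotene/zygotene spermatocytes and 79.5 and 73.5 in the next stage, so each spermatocyte library lay above all testis libraries. It rose by 4.91 ± 0.32 on the log2 scale (SE, adjusted p 9.64e-07 in edgeR) and then fell by 2.70 ± 0.29 into pachytene (adjusted p 0.00078). In this fit it was the only smooth muscle gene that passed at that last step. Summed over the list, smooth muscle RNA was 2460 to 2475 CPM at day 7, 750 to 757 in leptotene/zygotene and 255 to 319 in pachytene spermatocytes. Without Actg2 the leptotene/zygotene sum was 169 to 344.

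Fibroblast genes fell further. Of 20 listed genes 19 fell and none rose at the same step, with a median log2 fold change of -5.39, or -5.19 with Fap, which held no counts in leptotene/zygotene, at its bound. Col1a1, a chain of type I collagen, read 1147 and 1170.5 CPM at day 7 and 3.89 and 4.21 in leptotene/zygotene spermatocytes, a log2 fold change of -8.14 ± 0.62 (SE, adjusted p 2.24e-06 in edgeR). Col3a1, type III collagen, fell by 7.64 ± 0.45, and Pdgfra, a growth factor receptor of mesenchymal cells, by 5.90 ± 0.66. Dcn and Lum, which code for the matrix proteoglycans decorin and lumican, fell by 3.85 and 4.55. Into pachytene spermatocytes Dcn fell again with a log2 fold change of -3.79 (adjusted p 0.00214), and Lum with -2.05 (adjusted p 0.0263). Lum lost that call under several other settings. Mfap5 was the gene that did not pass the test, at 7.26 and 7.34 CPM in the 2 stages. The summed level went from 8990 to 9437 CPM at day 7 to 169 to 263 in leptotene/zygotene and 142.7 to 253 in pachytene spermatocytes.

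**Figure D4:**
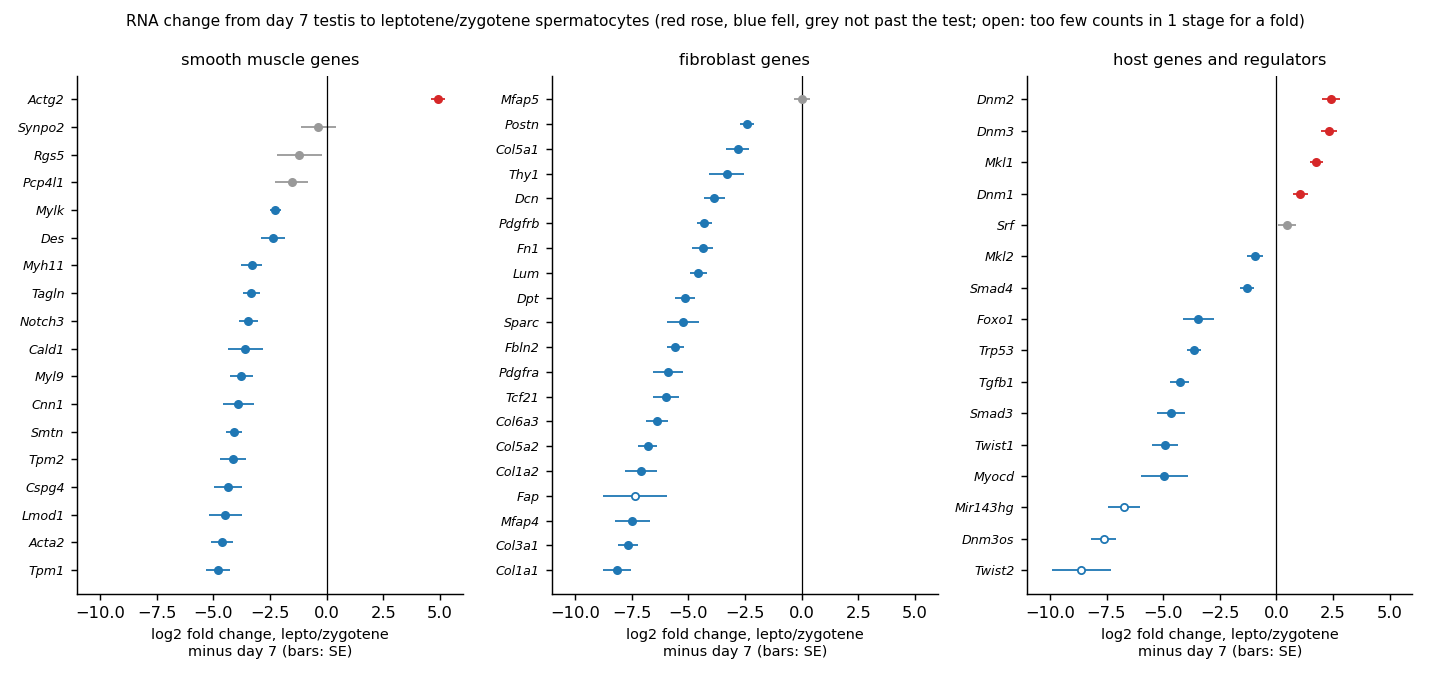
RNA log2 fold change from day 7 testis to leptotene/zygotene spermatocytes, with its SE, for smooth muscle genes, fibroblast genes, and host genes with regulators. Actg2 is the smooth muscle gene that rose, at 4.91, and Mir143hg, Dnm3os and Twist2 are among the genes at the far left; open points have 0 to 3 counts in a stage.

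Between days 1 and 3, and between days 3 and 7, no gene of the host, regulator, smooth muscle or fibroblast lists passed. In edgeR 0 of all genes rose and 0 fell at the first of these steps (1097 genes were under 0.05 before adjustment, and 79 passed in DESeq2), and 0.931% rose and 0.563% fell at the second. With only the stages compared in the fit, 10 of 20 fibroblast genes passed from day 3 to day 7. In that fit 503 of all 14897 genes tested rose and 516 fell.

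Markers of other cells of the testis were read beside the members. Endothelial RNA, summed over 11 genes, was 310 to 312 CPM at day 7, 69.9 to 105 in leptotene/zygotene and 37.0 to 75.2 in pachytene spermatocytes, with 8 genes fallen and 1 risen at the first step. No smooth muscle or endothelial gene on the lists was at 0 in any spermatocyte library, while 2 fibroblast genes were: Fap in 3 of the 4 libraries and Tcf21 in 1. The Sertoli and Leydig sums were 54.7 to 141 and 35.0 to 37.8 CPM in leptotene/zygotene spermatocytes, beside 3905 to 4021 and 650 to 837 at day 7. Macrophage RNA rose in sum only, from 120 to 146 CPM at day 7 to 508 to 686 in leptotene/zygotene. Of its 12 genes 7 fell and 3 rose, with a median log2 fold change of -2.52, beside -0.31 over all genes. In pachytene the sum was 136 to 150, with 6 fallen and none risen. Aif1, a marker of macrophages and microglia, went against most of its list and made up most of the leptotene/zygotene sum. It was at 1.71 CPM and then 505 (a log2 difference of 8.20 ± 0.35, SE, with an adjusted p of 2.98e-07 in edgeR). The part of these cells in the level of miR-143-3p was not tested.

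Erythroid RNA, summed over 7 genes, was low throughout, at 3.50 to 7.499 CPM at day 7, 9.21 to 9.72 in leptotene/zygotene and 6.51 to 8.67 in pachytene spermatocytes, with 4 or 5 of the genes at 0 in each spermatocyte library. Whole testis, which also holds blood cells, was low too, at 10.7 to 12.8 CPM on day 1 and 9.68 to 11.2 on day 3. Low erythroid RNA therefore cannot show whether red cells were present. The 4 globin genes on the list held no counts in any spermatocyte library, and 1 count in all at day 7. Of its 2 genes that could be tested, Epor, the erythropoietin receptor, rose from day 7 to leptotene/zygotene by 1.99 ± 0.49 on the log2 scale (SE, adjusted p 0.00411 in edgeR), and Alas2, of heme synthesis, did not pass, at 0.13. The 5 miRNA families of blood had log2 differences of 1.40 to 1.90 from day 7 to leptotene/zygotene, then -4.89 to -2.01 into pachytene. For 2 of them the leptotene/zygotene SD exceeded the mean, so a rise in both libraries is not shown. miR-142a-3p went from 8.44 ± 0.10 to 25.5 ± 29.0 CPM, and miR-223-3p from 19.7 ± 5.91 to 55.5 ± 71.4 (SD, n = 2). miR-451a, the miRNA of red cells, read 165 and 70.8 CPM at day 7, then 589 and 274 in leptotene/zygotene spermatocytes, and 29.1 and 5.30 in pachytene. miR-142a-5p, of white cells, read 173 and 202, then 998 and 379, then 55.2 and 276 CPM. The leptotene/zygotene libraries lay above the day 7 libraries for both. The endothelial miR-126a-3p read 421 and 444 CPM at day 7. It was at 1019.9 and 69.8 CPM in the leptotene/zygotene libraries and 970.4 and 127 in the pachytene libraries. This is the split between replicates seen for miR-145a-5p, high in the first and low in the second at both stages, and miR-143-3p was also lower in the second replicate at both. The split was not particular to them. miR-10a-5p read 203077 and 51419 CPM, then 185740 and 32624, and miR-22-3p 27987 and 12931, then 26280 and 12774. With plain library sizes the gap of miR-22-3p was small, at 24450 and 21646, then 26725 and 21334 CPM. On that scale miR-10a-5p read 177411 and 86074, then 188886 and 54485, and miR-126a-3p 891 and 117, then 987 and 212. miR-21a-5p, miR-202-5p and miR-449a-5p were higher in the second pachytene library. By share miR-143-3p took 5.57% and 5.30% in the pachytene libraries. Whether miR-126a-3p, miR-145a-5p and miR-143-3p share a source was not tested.

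The other miRNAs of muscle and mesenchyme did not move as a block. The 10 families with a row had a median log2 difference of -1.67 at this step, from -5.88 for miR-335-5p to 3.03 for miR-29a-3p. miR-127-3p, an imprinted mesenchymal miRNA, read 45997 and 45409 CPM at day 7 and 2303 and 1013 in leptotene/zygotene spermatocytes. miR-21a-5p, of many stromal cells, read 4920 and 5212, then 4995 and 2859, which overlap. miR-202-5p, abundant in Sertoli cells, read 6746 and 7793, then 958 and 304. The germ cell families stood at the other end, with a median of 2.63. The row named here after miR-449a-5p, which counts every miRNA with that seed, was at 392 and 584 CPM at day 7. In leptotene/zygotene spermatocytes it was at 236172 and 149937.

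**Figure D5:**
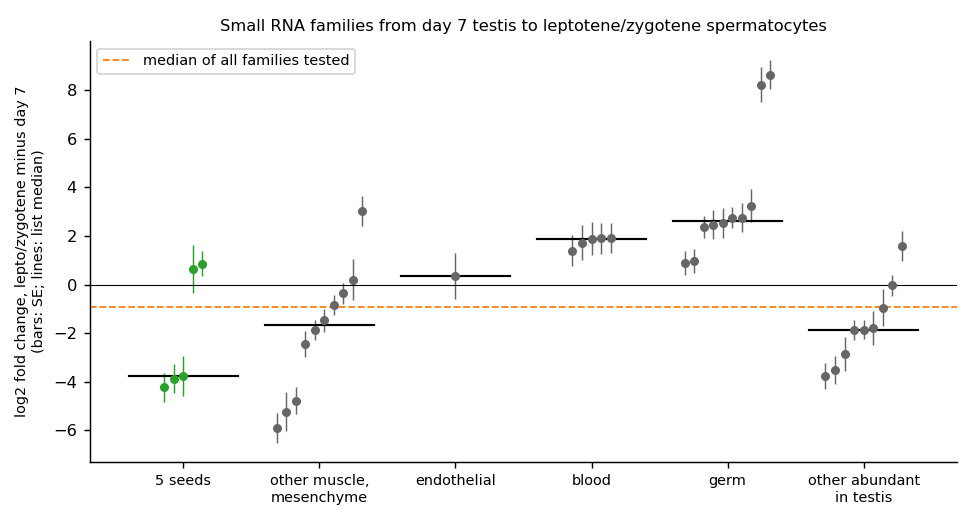
Log2 difference from day 7 testis to leptotene/zygotene spermatocytes, with its SE, of the 5 seeds and of listed miRNA families; black lines are list medians and the dashed line is the median of all families, -0.91. The 5 seeds split, with miR-143-3p and miR-145a-5p above 0 and the other 3 between -4.23 and -3.75. The direction of miR-145a-5p (0.66 ± 0.99, SE) rests on a single library, as it is -0.96 without the first leptotene/zygotene library.

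Genes described elsewhere as targets of these miRNAs were read last. Of 20 targets of miR-143 or miR-145, 6 rose and 12 fell from day 7 to leptotene/zygotene, with a median log2 fold change of -1.37. The 4 with the largest change all fell: Sox9, a Sertoli cell factor (log2 fold change -6.81 ± 0.94, SE), Prkce, a protein kinase C (-5.92 ± 0.55), Irs1, the insulin receptor substrate (-4.83 ± 0.48), and Camk2d, a calcium-dependent kinase (-4.62 ± 0.54). Klf4, the best known target of miR-145 and named after its values were seen, rose from 35.8 ± 0.49 to 447 ± 92.9 CPM (SD, n = 2; 3.64 ± 0.32, adjusted p 5.11e-06 in edgeR). Ace, likewise named after its values were seen, rose by 4.18 ± 0.35. Itga2 was counted among the 6 that rose, and read -0.085 without the second leptotene/zygotene library.

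Of 16 targets of miR-199a or miR-214, 5 rose and 10 fell, with a median of -1.41. Here too the 4 with the largest change all fell: Ddr1, a collagen receptor (log2 fold change -5.05 ± 0.28, SE), Met, the hepatocyte growth factor receptor (-4.08 ± 0.75), Hif1a, the hypoxia factor (-4.02 ± 0.67), and Xbp1, of the unfolded protein response (-3.79 ± 0.59). Both target lists are to be read against the 36.5% of all genes that rose and the 42% that fell. Into pachytene spermatocytes 3 targets of miR-143 or miR-145 rose and 4 fell, and 4 targets of miR-199a or miR-214 rose and 1 fell.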

How the data were processed

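RNA and small RNA were measured in 10 libraries each, 2 biological replicates at 5 stages. Both tables, as the authors deposited them, hold raw counts, per gene and per 7-letter seed. The mm9 genome, HTSeq 0.6.1, BWA 0.7.8, edgeR 3.6.8 and Bowtie 0.12.7 appear in the submitters' processing notes. Their roles, trimming and strand setting are not stated there. The 5 summary rows of HTSeq, 44.7% to 64.5% of reads, were left out. Seeds were matched to RefSeq mature miRNAs (GRCm38.p6), and 1127 rows matched. miR-143-3p and miR-145a-5p had no entry, so their rows were taken from general knowledge of their seeds, and their sequences are not reported here. Of the miRNAs on the fixed lists, 41 of 53 had an entry.

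Counts were scaled by TMM and fitted with edgeR 4.0.16 (R 4.3.3), all 10 libraries of an assay together, after filterByExpr with a minimum count of 10, which kept 16872 genes and 745 families, the 5 seeds among them. The 4 consecutive steps were tested two-sided by quasi-likelihood with Benjamini-Hochberg adjustment at 0.05 over all features. The SE was taken as the size of the log2 fold change divided by the root of F. A fold against a stage at 0 was taken at 3 counts over the stage, which cover counting error only. Intervals at 95% are Wilson for shares and exact Clopper-Pearson for ratios. Named were the seeds, other arms, the 3 most like families, hosts, regulators, 11 marker genes, and up to 4 genes of other lists by largest change. The members and lists were chosen with earlier results of these data known. The fit was tested on simulated data, which recovered 66.7% of 4-fold RNA changes and 50% of 4-fold small RNA changes from day 7 to leptotene/zygotene spermatocytes, and 6.93% and 4.17% of 2-fold changes. Alternatives were DESeq2 1.42.0, median-ratio, upper-quartile or plain scaling, no filter, fewer stages, a replicate block, shifted rows and each library left out.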

Additional observations from a re-analysis of the deposited data

How the results depend on the processing

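The log2 difference of miR-143-3p from day 7 to leptotene/zygotene stayed positive under all 20 alternatives tried (0.25 to 1.47), and those of miR-199a-5p, miR-199a-3p and miR-214-3p stayed below -3.2. That of miR-145a-5p ran from -0.96 to 1.22. Leaving out each library gave 0.62 to 1.27 for miR-143-3p and -4.49 to -3.81 for miR-199a-3p at that step, and -1.77 to -0.79 for miR-143-3p into pachytene. Adding rows shifted by 1 base was not run for miR-143-3p and miR-145a-5p, which have no RefSeq entry. Adding all rows that share 6 letters, a choice made after seeing the data, covered them. Plain library sizes moved the median RNA change from day 7 to leptotene/zygotene from -0.31 to -1.71, median-ratio factors to 0.01 and upper-quartile factors to -0.70. They turned Dnm1 to -0.34, Srf to -0.95, Srgap2 to -0.96, Ezh2 to -0.37, Map3k11 to -1.20 and Kl to -0.20, and Itga2 ran from -0.085 without leptotene/zygotene replicate 2 to 3.23 without replicate 1. The causes were not tested. The counts of smooth muscle and fibroblast genes called from day 7 to leptotene/zygotene, 15 and 19, ran from 15 to 17 and from 18 to 19 without single libraries. From day 3 to day 7 no fibroblast gene was called, but 1 without a filter, 10 with only the stages compared, 7 by DESeq2 and 0 to 3 without single libraries. For smooth muscle it was 1 with only the stages compared, and 0 to 1. Into pachytene 2 fibroblast genes were called, 1 with upper-quartile or plain scaling, 4 without a filter, 0 with only the stages compared, 5 by DESeq2 and 1 to 4 without single libraries; of smooth muscle 1 was called, 2 with plain scaling, 0 without Actg2 and 1 to 4 without single libraries. RNA genes called were 0 from day 1 to day 3 (79 by DESeq2, 0 to 35 without single libraries). From day 3 to day 7 they were 252 (437 without a filter, 1019 with only the stages compared, 965 by DESeq2, 0 to 635). They were 13245 from day 7 to leptotene/zygotene (11724 to 13736), and 3744 into pachytene (930 with only the stages compared, 2077 to 5073). Small RNA families called were 0 from day 1 to day 3 (60, 27, 46 in the same order, 0 to 29 without single libraries). From day 3 to day 7 they were 31 (56, 112, 87, then 69 with median-ratio factors, 30 higher and 39 lower, 49 with plain scaling, 6 to 85). They were 463 from day 7 to leptotene/zygotene (233 to 489), and 3 into pachytene (14, 0, 16, then 0 to 5). Over all stages the replicate numbers did not pair the samples: deviations of same-numbered replicates correlated at no more than 0.0047 between RNA stages and 0.16 between small RNA stages, except between the 2 spermatocyte stages, at 0.75 in RNA and 0.18 in small RNA. Nothing in the labels says what those numbers share. With a replicate block of the spermatocyte libraries only, chosen after seeing the data, no call named in the report was lost. RNA genes called were 85, 2041, 14193 and 6366 over the 4 steps and small RNA families 49, 73, 480 and 5. From day 3 to day 7 it called 13 fibroblast and 4 smooth muscle genes, Dnm3os (-1.33) and Twist1 (-1.44), and into pachytene 8 and 4. Rgs5 and Pcp4l1 passed at -1.77 and -1.68 from day 7 to leptotene/zygotene, where miR-143-3p read 0.64 and miR-145a-5p -0.16. With the replicate block over all stages, 4 fibroblast genes were called into pachytene and 13207 RNA genes from day 7 to leptotene/zygotene, 16 of them smooth muscle genes; miR-143-3p read 0.70 at that step. Depth limits miR-214-3p most: 3 counts came to 4.19 to 15.9 CPM in the spermatocyte small RNA libraries.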
